A study of Mus with 8 samples.

Results

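Cd34, Fcgr3 and Fcgr2b encode the surface proteins by which mouse myeloid progenitors are usually sorted. Their RNA was read beside the antibody tags CD34 (clone SA376A4) and CD16/32 counted on the same single cells. These are 3 of the 32285 genes and 2 of the 10 antibody tags of the series, and they were chosen by name, not by their values. Barcodes with at least 7500 gene UMI were used, a UMI being a molecular identifier that marks 1 captured molecule. Of the 36251 barcodes that reached this minimum, 35549 also had at most 10% mitochondrial UMI.

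The series concerns interferon and blood formation in newborn mice and was made by CITE-seq, which counts RNA and antibody-borne tags in each cell. Cells were Lin-Kit+ (LK, mostly committed progenitors) or Lin-Sca1+Kit+ (LSK, stem cells and early progenitors), from mice labelled Ifnar+/- or Ifnar-/-, at birth (P0) or 14 days of age (P14). Each of the 8 combinations had 1 library, so no value between genotypes, ages or fractions has a replicate error. The labels name no organ, do not describe the Ifnar allele, and do not say whether an LK and an LSK library came from the same mice or how many mice were pooled. Ifnar+/- animals, the comparison group, carry a single working copy of the receptor gene, so no group has wild-type mice. The LK label does not exclude Sca1-bearing cells. LK libraries held 5891 (P0 Ifnar+/-), 5767 (P0 Ifnar-/-), 2411 (P14 Ifnar+/-) and 3885 cells (P14 Ifnar-/-), and LSK libraries held 5122, 3471, 4615 and 4387 cells. This order of libraries is kept in every list of values below.

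CD34 is a sialomucin of blood progenitors and endothelium. Stem cells of adult mice carry little of it, and it increases as they become multipotent progenitors and is lost again during maturation. Fcgr3 encodes FcγRIII (CD16), an activating receptor for the constant part of IgG that signals through the γ chain, the product of Fcer1g. Fcgr2b encodes FcγRIIB (CD32), its inhibitory counterpart, which carries its own inhibitory motif. The usual CD16/32 antibodies bind both receptors, so the tag is not specific for either gene. In the classical gating of LK cells, granulocyte-monocyte progenitors (GMP) are CD34-high CD16/32-high, common myeloid progenitors (CMP) are CD34-high CD16/32-low, and megakaryocyte-erythroid progenitors (MEP) are low for both.

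In the mouse build mm10, which the submitters' processing notes name, all 3 genes lie on chromosome 1. By RefSeq, Fcgr2b (ENSMUSG00000026656) spans chr1:170960558-170976071 and Fcgr3 (ENSMUSG00000059498) spans chr1:171051169-171065915. Fcgr4, a related activating receptor, lies between them at chr1:171018926-171029761. Fcer1g follows at chr1:171229572-171234349. Cd34 (ENSMUSG00000016494) lies apart from this cluster at chr1:194938821-194961292. Fcgr3 and Fcgr2b have very similar extracellular parts. How reads that match both were counted is not given in the sources used here, so part of either count may belong to the other gene.

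Gene UMI per library ranged from 100486590 to 302507736, with a median per cell of 25597 to 46231. Median tag UMI per cell were 4757 to 7447. Any pair of libraries shared 1 to 11 cell barcodes. Ifnar1 RNA was 14.7 to 23.5 CPM (the UMI of a gene scaled to a common total of gene UMI, as counts per 1e6) in LK and 29.4 to 36.9 CPM in LSK, and it was slightly lower in each Ifnar-/- library than in its Ifnar+/- partner. The labels do not say which part of the gene is deleted, so a 3' count of it does not check the genotype labels. RNA of barcodes with 100 gene UMI or fewer, taken as free RNA, held Cd34 at 88.1 to 142 CPM in LK and 273 to 346 CPM in LSK. CD34 made up 5.09 to 14.0% of free tags in LK and 23.8 to 35.8% in LSK.

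Both tags separated LK cells into groups. Each tag was divided at its Otsu threshold, the value that best splits log2(tag UMI + 1) into a low and a high class, in each LK library. The CD34 threshold was 56.4, 53.6, 81.4 and 71.0 tag UMI and the CD16/32 threshold 132, 123, 109 and 85.2 tag UMI, with 8.5 to 12.5% of cells within 0.5 log2 units of a threshold. Over the 4 LK libraries, 3897 cells were CD34-high CD16/32-high, 5146 were CD34-high CD16/32-low, 7594 were low for both and 1317 were CD34-low CD16/32-high, a combination without a usual name.

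CD34-high CD16/32-high cells made up 18.9, 19.1, 31.3 and 23.9% of LK cells. The CD34-high CD16/32-low gate held 27.1, 27.3, 30.8 and 31.7%. Cells low for both made up 44.8, 45.7, 33.0 and 39.3%, and CD34-low CD16/32-high cells 9.15, 7.96, 4.89 and 5.17%. Cells low for both formed the largest gate in each library at these thresholds. In P14 Ifnar+/- they were 31.4%, against 32.6 and 32.5% in the CD34-high gates, with 1 threshold for all LK libraries. CD34-high cells of either CD16/32 class were 46.0, 46.4, 62.1 and 55.6% of LK cells, a higher share in both P14 libraries. The difference between P14 and P0 was 16.1 percentage points in Ifnar+/- (95% interval 13.7 to 18.4) and 9.19 points in Ifnar-/- (7.14 to 11.2). These intervals cover the counting of cells only. With 1 threshold for all LK libraries the differences were 21.2 and 13.5 points.

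**Figure D1:**
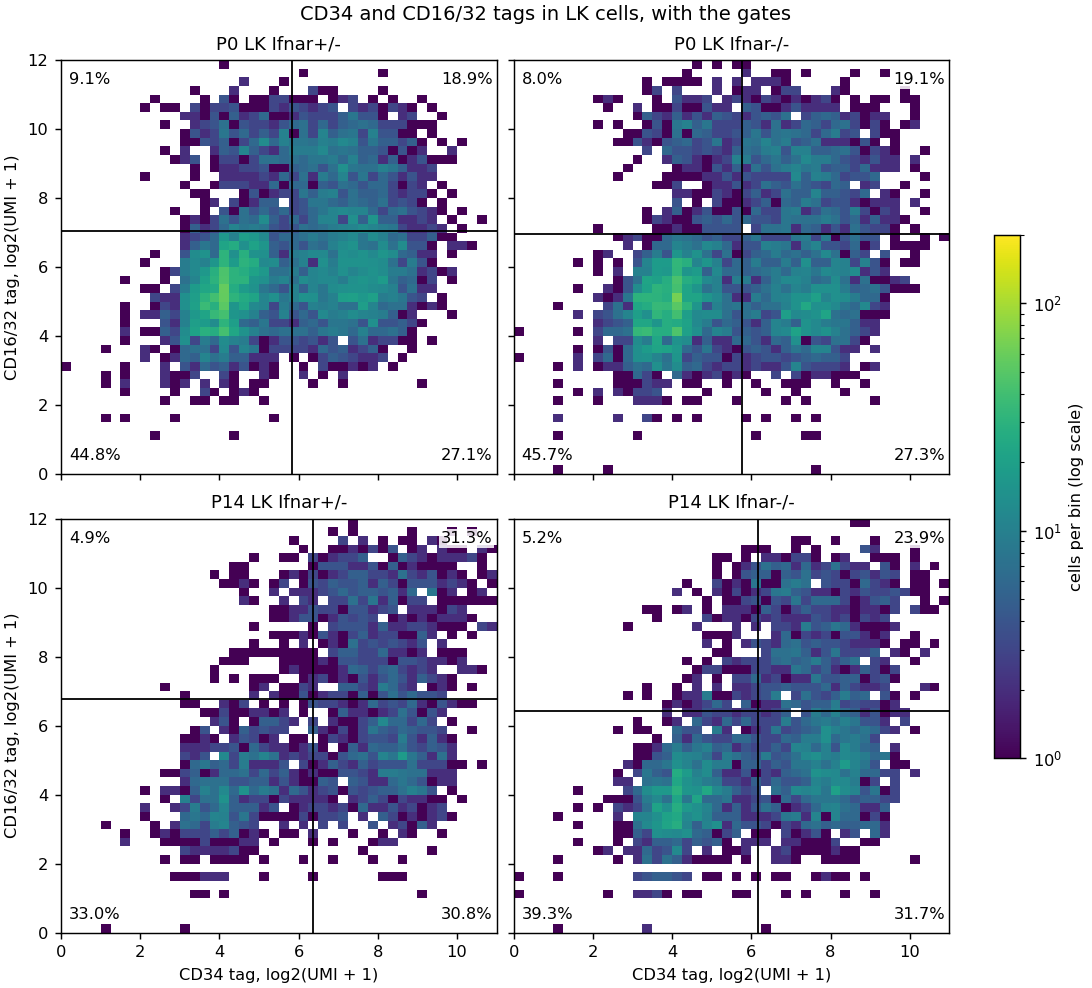
Number of LK cells per bin of the CD34 tag (x axis, log2(UMI + 1)) and the CD16/32 tag (y axis, log2(UMI + 1)) in each LK library, with black lines at the thresholds and the share of cells in each gate. The 2 P14 libraries have 62.1 and 55.6% of cells right of the CD34 line, against 46.0 and 46.4% at P0.

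Between Ifnar-/- and Ifnar+/- libraries the CD34-high share differed by 0.35 points at P0 (-1.47 to 2.17) and by -6.52 points at P14 (-9.02 to -3.997). At P14 the CD34-high CD16/32-high share differed by -7.41 points (-9.73 to -5.11), and the share low for both by 6.24 points (3.78 to 8.68). At P0 the CD34-low CD16/32-high share differed by -1.19 points (-2.22 to -0.16). No other P0 gate share differed beyond its interval. The first of these depends on the threshold: that gate held 6.82 and 6.52% of the P0 libraries by a Gaussian mixture and 11.9 and 9.95% with 1 threshold for all LK libraries, which also gave 44.3 and 46.7% low for both. A single library on each side means that these are differences between libraries, and the part of the genotype in them was not tested.

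Cd34 RNA followed the CD34 tag. In CD34-high CD16/32-low cells it was 322, 317, 403 and 404 CPM, in CD34-high CD16/32-high cells 202, 193, 263 and 260 CPM, and in CD34-low CD16/32-high cells 31.6, 29.6, 79.6 and 57.5 CPM. In cells low for both it was 18.2, 14.0, 19.6 and 18.6 CPM. This order of the gates was the same in each of the 4 libraries, and no 2 gates overlapped. The median tag count followed in part: the CD34 tag was at 173, 176, 325 and 246 UMI in the CD34-high CD16/32-low gate and at 155, 167, 280 and 215 UMI in the CD34-high CD16/32-high gate, a smaller gap than that of the RNA. Its medians were 26, 24, 52 and 43 UMI in CD34-low CD16/32-high cells and 17, 15, 18 and 19 UMI in cells low for both.

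Fcgr3 RNA was concentrated in the gates high for CD16/32. It reached 147, 178, 111 and 86.3 CPM in CD34-low CD16/32-high cells and 111, 124, 72.0 and 66.0 CPM in CD34-high CD16/32-high cells. In CD34-high CD16/32-low cells it was 7.80, 8.75, 3.84 and 2.96 CPM, and in cells low for both 1.60, 1.31, 0.97 and 0.78 CPM. The lowest value of the gates high for CD16/32 exceeded the highest value of the gates low for it. Within a library the CD34-low CD16/32-high gate had the higher Fcgr3 level of the pair each time. The median CD16/32 tag was also higher there at P0 (601 and 737 UMI against 434 and 486), but not at P14 (517 and 253 UMI against 578 and 362). As a share of all tags it was higher there in each library, at 15.6, 18.5, 10.2 and 9.04% against 8.14, 8.63, 7.44 and 6.73%. Here and below, shares of all tags set beside medians are of UMI summed over cells, so cells with many UMI weigh more. The CD48 tag made up 70.3 to 73.5% of all tags of the LK libraries, so such shares depend largely on it.

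Fcgr2b RNA also marked the gates high for CD16/32, with a different balance between them. It was 38.9, 41.9, 32.8 and 28.7 CPM in CD34-high CD16/32-high cells and 34.6, 35.4, 34.8 and 25.9 CPM in CD34-low CD16/32-high cells, and these ranges overlapped. In CD34-high CD16/32-low cells it was 7.03, 7.07, 4.56 and 4.58 CPM. In cells low for both it was 1.46, 1.12, 1.48 and 1.60 CPM. Cells low for both thus had the least RNA of each of the 3 genes in each library.

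**Figure D2:**
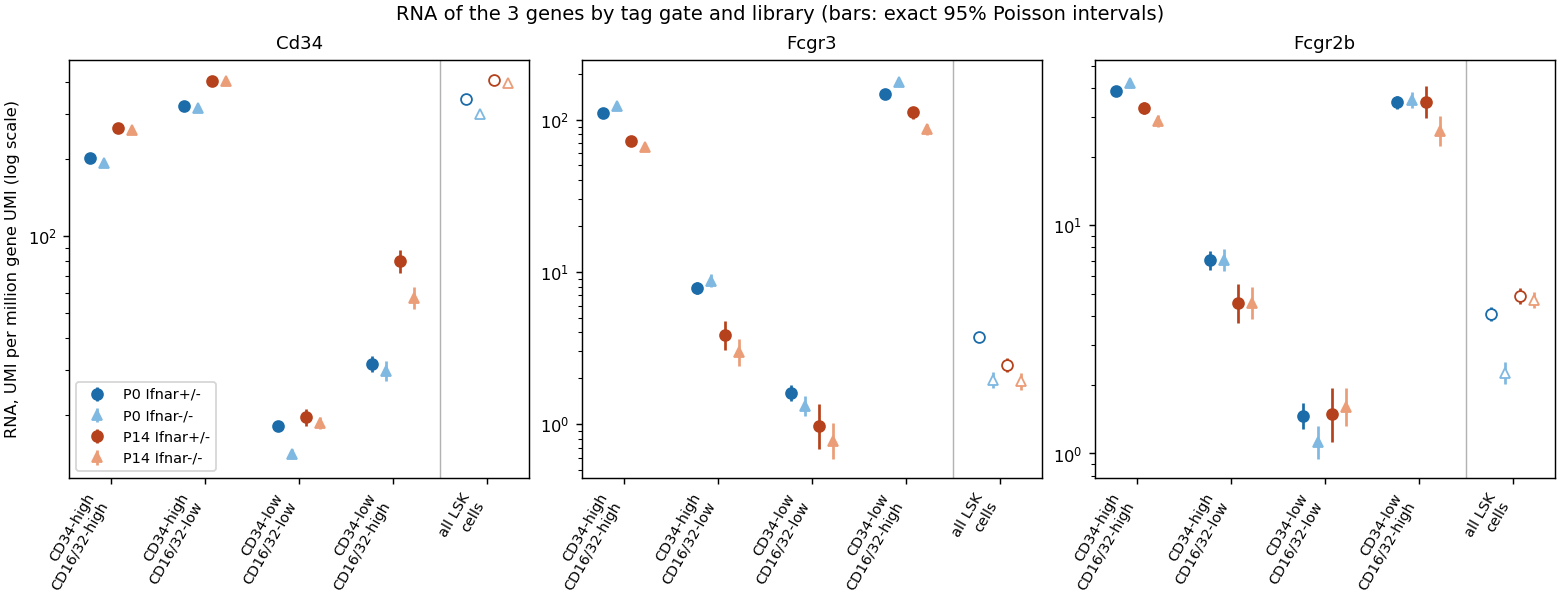
RNA of Cd34, Fcgr3 and Fcgr2b (y axis, CPM, log scale) in the 4 gates of each LK library and in all cells of each LSK library (open symbols), with exact 95% Poisson intervals. Cd34 is highest in CD34-high CD16/32-low cells (317 to 404 CPM) and Fcgr3 in CD34-low CD16/32-high cells (86.3 to 178 CPM).

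The gates were defined by tags, so RNA could be tested between them over the 4 LK libraries. edgeR's quasi-likelihood test was fitted to the UMI sums of the 16 combinations of gate and library with the library as block, over 14060 genes, and a gene was called at a Benjamini-Hochberg adjusted p under 0.05. Libraries of different age and genotype served as replicates, and gates of 1 library enter several comparisons, which therefore share samples. Gates differed in far more than the receptor genes, so the share of all genes called is given where each comparison is introduced and beside the counts of gene lists.

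Within CD34-high cells, CD16/32-high against CD16/32-low cells gave 60.2% of all genes called, 30.1% higher and 30.2% lower, and the 3 members were among them. Fcgr3 rose by 4.20 on the log2 scale (SE 0.11, adjusted p = 8.8e-12). Fcgr2b rose by 2.78 (SE 0.13, adjusted p = 1.1e-09). Cd34 fell by 0.47 (SE 0.13, adjusted p = 6.3e-03). Fold changes of the fits are scaled by edgeR's TMM factors, so they differ from ratios of the CPM given for the gates. For Cd34 here, those CPM give a larger fall in each library. The Fcgr3 and Fcgr2b differences are those of the tag's own receptors and were far above the median of all genes, -0.01. The Cd34 call was lost without the library block (adjusted p = 0.103) and with each tag divided at its library median (adjusted p = 0.421).

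Within CD34-low cells, 58.2% of genes were called, 26.0% higher and 32.2% lower in CD16/32-high cells. Fcgr3 rose by 6.83 (SE 0.12, adjusted p = 1.5e-13), Fcgr2b by 4.59 (SE 0.15, adjusted p = 1.1e-11) and Cd34 by 1.38 (SE 0.15, adjusted p = 3.9e-06). Cd34 RNA thus differed in opposite directions between the CD16/32 gates of the CD34-high and the CD34-low cells. The median CD34 tag given above differed in the same directions in each library. It was lower in the CD16/32-high gate among CD34-high cells and higher in it among CD34-low cells. The part of the CD34 tag in these Cd34 differences was not tested. With tags divided at library medians the Cd34 difference was 1.12 and was not called (adjusted p = 0.0917).

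CD34-high against CD34-low cells, both CD16/32-low, gave 78.3% of genes called, 39.5% higher and 38.8% lower. Cd34 rose by 4.14 (SE 0.15, adjusted p = 2.2e-11). Fcgr3 rose by 2.10 (SE 0.13, adjusted p = 3.2e-09) and Fcgr2b by 1.89 (SE 0.15, adjusted p = 3.3e-08). Both receptor genes were therefore higher among CD34-high cells also where the CD16/32 tag was low. The CD16/32 tag itself was somewhat higher in that gate, at a median of 46, 32.5, 31 and 25 UMI against 36, 28, 17 and 14 UMI. As a share of all tags it was lower there, at 0.91, 0.64, 0.448 and 0.419% against 1.10, 0.83, 0.457 and 0.428%.

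Among CD16/32-high cells, CD34-high against CD34-low gave 33.0% of genes called, 16.6% higher and 16.4% lower. Cd34 rose by 2.29 (SE 0.15, adjusted p = 1.5e-07) and Fcgr3 fell by 0.53 (SE 0.09, adjusted p = 4.0e-04). Fcgr2b did not pass the test, with 0.08 (SE 0.12, adjusted p = 0.684), but with tags divided at library medians it rose by 0.85 (adjusted p = 0.0133). The Fcgr3 call was lost without the library block (adjusted p = 0.377), its direction turned to 0.31 with tags divided at library medians, and it was -0.27 with tags as a share of all tags of the cell. That last setting gave 1.53 for Cd34.

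The 2 receptor genes also differed in proportion. For 1 UMI of Fcgr2b there were 4.24, 5.03, 3.20 and 3.33 UMI of Fcgr3 in CD34-low CD16/32-high cells and 2.85, 2.95, 2.20 and 2.30 in CD34-high CD16/32-high cells. The ratio was 1.11, 1.24, 0.84 and 0.65 in CD34-high CD16/32-low cells and 1.10, 1.18, 0.65 and 0.49 in cells low for both. In all LSK cells it was 0.91, 0.86, 0.50 and 0.41. Without LSK cells of a CD16/32 tag of 500 UMI or more, a limit chosen after seeing the data, it was 0.75, 0.29, 0.37 and 0.25. The activating receptor thus had its largest share of the pair in the CD34-low CD16/32-high gate of each library. The ratio was lower at P14 than at P0 in each of these classes and both genotypes. Counting intervals of the 2 ages overlapped for both CD16/32-low gates in Ifnar+/-. They also overlapped in Ifnar-/- for LSK without the cells of a CD16/32 tag of 500 UMI or more. A ratio of UMI between 2 genes also depends on how well each is captured, so only its differences between classes are read.

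A sum over a gate does not tell more cells with RNA from more RNA per cell, so cells were also counted after thinning each to 7500 UMI, which left no cell out. At least 1 UMI of Cd34 was found in 87.9, 88.9, 92.5 and 92.5% of CD34-high CD16/32-low cells and in 73.2, 68.4, 79.3 and 80.5% of CD34-high CD16/32-high cells. In cells low for both it was found in 13.8, 12.1, 14.3 and 16.1%, the lowest share of the gates. That share is not a background level, since Cd34 RNA was lower still in the LK cells with the lowest CD34 tag, given below. CD34-low CD16/32-high cells of the P0 libraries were somewhat above it, at 18.9 and 18.1%, and those of the P14 libraries were at 38.1 and 31.3%. Without thinning, the gates' shares were 95.6 to 98.4% and 98.9 to 99.5% for the CD34-high gates and 29.0 to 40.9% for cells low for both.

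Fcgr3 was found after thinning in 55.5, 64.5, 55.1 and 40.8% of CD34-low CD16/32-high cells and in 45.6, 51.3, 34.2 and 34.5% of CD34-high CD16/32-high cells. The share was 2.44 to 5.85% in CD34-high CD16/32-low cells and 0.721 to 1.82% in cells low for both. Fcgr2b was found in 25.05, 25.9, 19.5 and 15.4% and in 22.4, 26.3, 17.8 and 16.9% of the 2 CD16/32-high gates, against 1.06 to 1.97% of cells low for both. Even in cells with a high CD16/32 tag, therefore, a cell thinned to this depth often had no UMI of either receptor gene. Without thinning, 61.2 to 85.2% of cells in the CD16/32-high gates had Fcgr3 and 40.3 to 74.8% had Fcgr2b, at median depths of 29693 to 47926 UMI, against 3.15 to 7.46% and 4.63 to 7.27% of cells low for both, at 39142 to 60306 UMI.

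Along each tag the RNA did not increase evenly. Cells of a library were divided into 10 equal groups by the tag. In LK, Cd34 RNA went from 7.01, 4.92, 2.74 and 4.11 CPM in the lowest group to 314, 320, 338 and 361 CPM in the highest. Most of the increase lay in the middle groups, and in the P14 libraries the highest level was in the ninth group, at 379 and 383 CPM. Fcgr3 RNA was 14.2, 25.9, 32.6 and 13.6 CPM in the eighth group by CD16/32 tag, 120, 137, 92.4 and 45.2 CPM in the ninth and 218, 218, 124 and 128 CPM in the highest. Fcgr2b was 41.7, 44.7, 41.3 and 22.4 CPM in the ninth group and 55.6, 50.3, 45.8 and 44.0 CPM in the highest, a smaller step than that of Fcgr3.

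**Figure D3:**
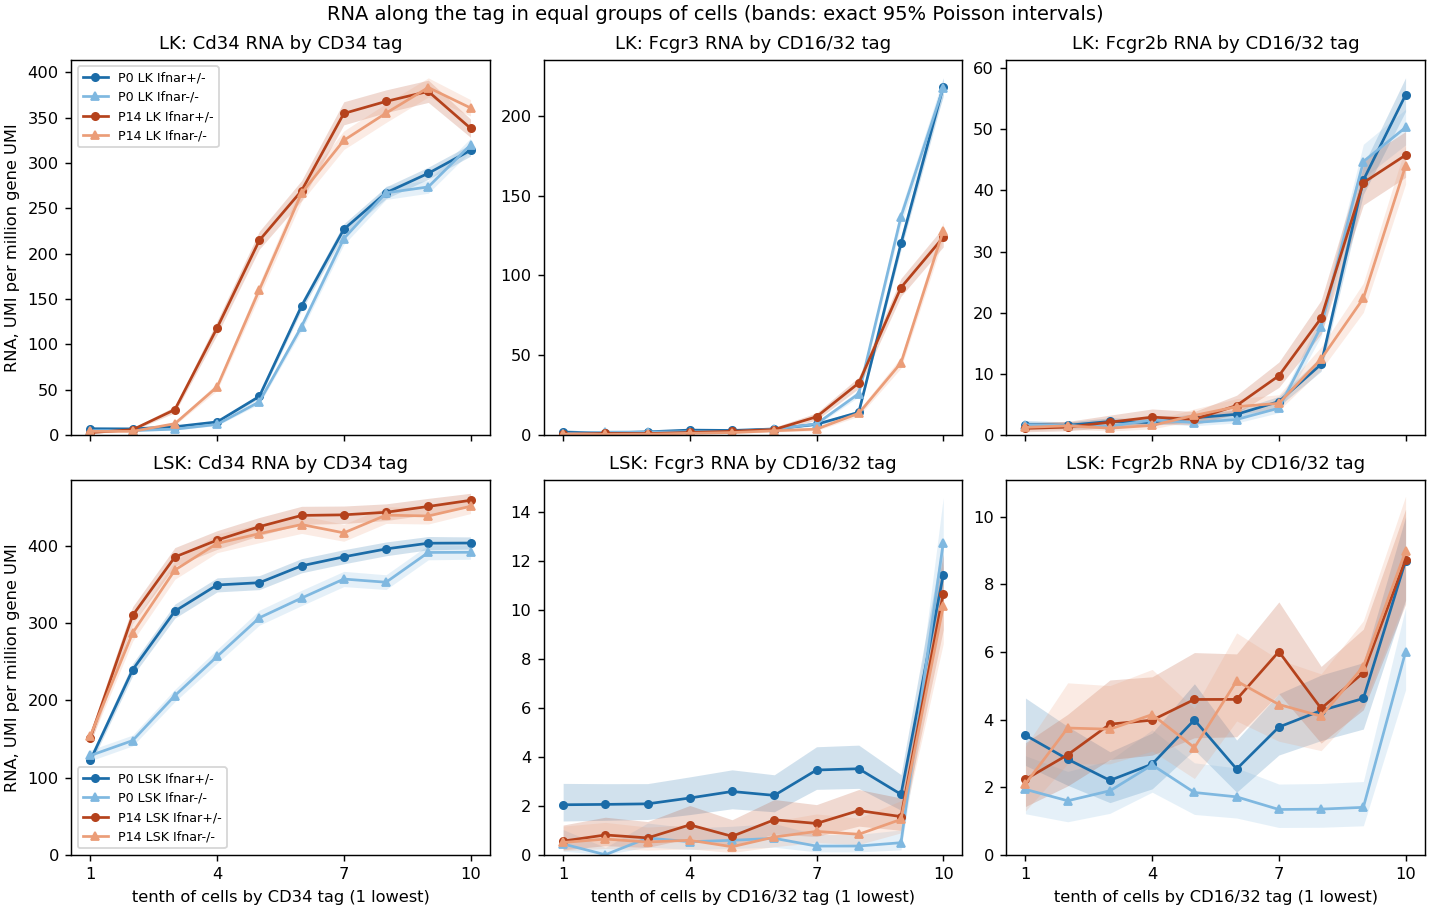
RNA of each gene (y axis, CPM) in 10 equal groups of cells ordered by the matching tag (x axis, 1 lowest), for LK libraries above and LSK libraries below, with exact 95% Poisson bands. Fcgr3 stays low over most of the CD16/32 range and reaches 124 to 218 CPM in the highest LK group.

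Across single LK cells, Spearman's rho between thinned RNA and tag was 0.69, 0.69, 0.66 and 0.69 for Cd34 and the CD34 tag. It was 0.51, 0.55, 0.49 and 0.46 for Fcgr3 and the CD16/32 tag, and 0.31, 0.32, 0.29 and 0.24 for Fcgr2b and the same tag. In LSK the values were 0.30, 0.36, 0.28 and 0.28 for Cd34 (0.20, 0.16, 0.24 and 0.23 with the tag as a share of all tags of the cell), 0.05 to 0.16 for Fcgr3 and 0.01 to 0.08 for Fcgr2b. RNA and the matching tag were thus ordered more alike in LK than in LSK, where each tag spans a narrower range. The CD16/32 tag is not specific for either receptor gene. Few LSK cells had a UMI of these genes after thinning, as given below. These are descriptions over cells that share a library and depth, and depth itself had a rho of -0.33, -0.29, -0.02 and -0.18 with the CD34 tag in LK and of 0.42, 0.48, 0.53 and 0.53 in LSK.

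The Fc receptor family was read next, from a list of 15 genes of which 8, Fcgr3 and Fcgr2b included, passed the filter on low counts and were tested. Among CD34-high cells, 6 rose and 2 fell with the CD16/32 tag (median 2.13), where 30.1 and 30.2% of all genes did so. Among CD34-low cells 6 rose and 0 fell (median 4.31, against -0.06 for all genes), where 26.0 and 32.2% of all genes did so. Fcgr3 and Fcgr2b, the tag's own receptors, are among the risers. With CD34, 7 of the 8 rose and 0 fell among CD16/32-low cells (median 2.68), where 39.5 and 38.8% of all genes did so. Among CD16/32-high cells 3 rose and 2 fell with CD34, where 16.6 and 16.4% of all genes did so. Fcer1g, the γ chain, was at 172, 199, 194 and 168 CPM in CD34-high CD16/32-high cells and at 140, 186, 150 and 131 CPM in CD34-low CD16/32-high cells. It was at 77.2, 84.5, 58.2 and 55.1 CPM in CD34-high CD16/32-low cells and at 8.05 to 10.6 CPM in cells low for both. With the CD16/32 tag it rose by 1.61 (SE 0.11) and by 4.03 (SE 0.13) in the CD34-high and CD34-low cells. The γ chain was thus well above its lowest level in CD34-high CD16/32-low cells, where Fcgr3 was low.

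Fcgr4, the neighbour of Fcgr3, rose with CD16/32 by 2.65 (SE 0.27) and 6.42 (SE 0.41), yet its level stayed between 0.953 and 1.71 CPM in the CD16/32-high gates. Fcgr1, the high-affinity IgG receptor, stayed below 1 CPM in each gate and library. Ms4a2, the β chain of the IgE receptor of mast cells and basophils, was at 54.8 to 106 CPM in CD34-low CD16/32-high cells and 11.6 to 33.3 CPM in CD34-high CD16/32-high cells, and fell by 2.19 (SE 0.22, adjusted p = 7.0e-06) between them. Fcgrt, the neonatal Fc receptor, moved with the CD34 tag. It was at 8.19 to 9.34 CPM in CD34-high CD16/32-low cells, fell by 0.81 (SE 0.17) with CD16/32 among CD34-high cells and rose by 2.72 (SE 0.18) and 2.12 (SE 0.27) with CD34.

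Of 13 genes that carry the signal of Fc receptors, 2 rose and 5 fell with CD16/32 among CD34-high cells (30.1 and 30.2% of all genes), and 9 rose and 1 fell among CD34-low cells (26.0 and 32.2% of all genes). With CD34, 11 rose and 0 fell among CD16/32-low cells (39.5 and 38.8% of all genes), and 4 rose and 1 fell among CD16/32-high cells (16.6 and 16.4% of all genes). Syk, the kinase bound by the γ chain, was at 63.7, 56.7, 71.7 and 70.8 CPM in CD34-high CD16/32-low cells and at 45.0, 37.0, 50.04 and 44.3 CPM in CD34-high CD16/32-high cells, a fall of 0.39 (SE 0.05, adjusted p = 2.2e-05). Inpp5d encodes SHIP1, the phosphatase recruited by FcγRIIB, and fell by 0.41 (SE 0.05) in the same comparison.

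CD34 has relatives in podocalyxin (Podxl) and endoglycan (Podxl2). Of this list of 5 genes, Cd34 included, 4 rose and 1 fell with CD34 among CD16/32-low cells, and 2 rose and 1 fell among CD16/32-high cells, where 39.5 and 38.8%, and 16.6 and 16.4%, of all genes did so. Podxl was the gene that fell with CD34 among CD16/32-low cells. In cells low for both it was at 37.8 and 34.6 CPM in the P0 libraries and at 1.86 and 2.15 CPM in the P14 libraries, and it fell by 3.45 (SE 0.15, adjusted p = 1.4e-10) to CD34-high CD16/32-low cells. Podxl2 stayed at or below 2.10 CPM in each gate. Crkl, whose product binds the cytoplasmic tail of CD34, was at 13.5 to 24.9 CPM throughout.

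Lineage gene lists show which cells the tags had gathered. All 14 granulocyte-monocyte genes tested rose with CD16/32 in both CD34 classes (medians 1.89 and 4.43), as did 30.1 and 26.0% of all genes. Their summed RNA was 9601 to 14463 CPM in CD34-high CD16/32-high cells and 12572 to 18641 CPM in CD34-low CD16/32-high cells, against 984 to 2166 CPM in CD34-high CD16/32-low cells and 136 to 210 CPM in cells low for both. Elane, neutrophil elastase, was at 1377, 2035, 1157 and 1084 CPM in CD34-high CD16/32-high cells and at 18.2, 19.2, 7.04 and 9.72 CPM in CD34-high CD16/32-low cells, a rise of 6.90 (SE 0.25). The gate of GMP thus had the genes that mark these cells. Cells ranked highest by Scrublet, a caller of doublets, were most frequent there (4.51 to 9.97% of the gate, against 0.251 to 2.54% of cells low for both), and removing them lost no call of the 3 members in any comparison.

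Other lineages also differed between the CD34-low CD16/32-high gate and the GMP gate. Erythroid genes fell in the CD34-high gate, 13 of 13 (median -1.998), as did 7 of 8 megakaryocyte genes, against 16.4% of all genes. Summed erythroid RNA was 876 to 1220 CPM in the CD34-low and 282 to 492 CPM in the CD34-high CD16/32-high gate, and its part in the Cd34 and Fcgr3 differences was not tested. The CD34-high gate had higher Irf8 and Ly86, genes of the monocyte and dendritic branch, by 4.32 (SE 0.26) and 5.09 (SE 0.53). Irf8 was at 139, 163, 146 and 109 CPM in CD34-high and 5.60 to 9.08 CPM in CD34-low cells. The granule and alarmin genes Camp, S100a8, S100a9 and Fcnb fell by 4.78, 4.37, 4.81 and 3.96. S100a8 was at 3357, 3374, 653 and 562 CPM in CD34-low CD16/32-high cells and at 164, 249, 19.2 and 28.1 CPM in CD34-high CD16/32-high cells, and both were higher at P0. The granulocyte-monocyte list as a whole was split between these gates, with 6 genes higher and 6 lower of 14 in the CD34-high gate (median 0.01; 16.6 and 16.4% of all genes).

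Mast cell and basophil genes were part of both CD16/32-high gates. All 7 tested rose with CD16/32 in each CD34 class (medians 3.73 and 6.14; 30.1 and 26.0% of all genes), and 5 of 7 fell from the CD34-low to the CD34-high gate (16.4% of all genes). Their summed RNA was 387 to 542 CPM in the CD34-low and 237 to 333 CPM in the CD34-high CD16/32-high gate, against 10.5 to 49.0 CPM in the others. Mast cells and basophils carry both receptors, and their part in the Fcgr3 and Fcgr2b levels was not tested. Eosinophil genes moved with CD16/32 as well: of 4 tested, 3 rose among CD34-high and 4 among CD34-low cells (medians 6.20 and 7.18; 30.1 and 26.0% of all genes). Their summed RNA was 30.6, 62.1, 80.3 and 106 CPM in CD34-high CD16/32-high cells, 214, 327, 6.30 and 9.67 CPM in CD34-low CD16/32-high cells and at most 2.76 CPM in the others. Eosinophil RNA was thus highest in the CD34-low gate at P0 and in the CD34-high gate at P14, and its part in the receptor levels was not tested. One library stood apart in the CD34-low CD16/32-high gate: Pf4, of megakaryocytes, was at 372 CPM in P14 Ifnar-/- and at 7.76 to 14.1 CPM in the others. Without that library the 3 members kept their directions and calls, and Fcgr3 between the CD16/32-high gates was -0.61.

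Cells low for both tags held the erythroid genes, and CD34-high CD16/32-low cells held the lymphoid and most of the stem cell genes. All 13 erythroid genes tested fell with CD34 among CD16/32-low cells (median -3.57), as did 38.8% of all genes. They also fell with CD16/32 among CD34-low cells (13 of 13, median -1.32), as did 32.2% of all genes. Car1, a carbonic anhydrase of erythroid progenitors, was at 243, 285, 1216 and 1089 CPM in cells low for both and at 15.5 to 59.3 CPM in CD34-high CD16/32-low cells. All 8 lymphoid-primed genes rose with CD34 there (median 4.80), as did 39.5% of all genes, led by Flt3, the receptor of lymphoid-primed and dendritic progenitors, at 99.5, 89.8, 156 and 145 CPM against 1.33 to 2.79 CPM. Of 9 stem cell genes, 6 rose with CD34 among CD16/32-low cells, and Slamf1, Mllt3 and Ctnnal1 fell, by 1.82, 0.79 and 0.31. All 9 stem cell genes and all 8 lymphoid-primed genes fell with CD16/32 among CD34-high cells (medians -1.46 and -2.12), as did 30.2% of all genes.

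The sums of the CD34-high CD16/32-low gate, that of CMP, held RNA of several lineages, and sums do not tell separate cells from cells that express them together. Dntt, the terminal transferase of lymphoid precursors, was at 181 and 202 CPM in that gate at P14 and at 0.272 and 0.379 CPM at P0. Ly6a, the gene of Sca1, was at 40.0, 5.68, 26.2 and 13.5 CPM there and at most 9.62 CPM in each other gate. RNA of the Sca1 gene was thus present in LK and was highest in this gate. In this gate it was lower in the Ifnar-/- library at both ages. Whether the Sca1 sort drew like cells from both genotypes was not tested. Of cells that the sort should remove, mature macrophage genes summed to 0.57 to 6.89 CPM and hepatocyte genes to 1.87 to 12.98 CPM over the gates. Mature B cell genes, mostly Cd79b, summed to 9.82 to 50.1 CPM and endothelial genes to 11.1 to 66.3 CPM. The hepatocyte genes Alb, Ttr and Serpina1a had no UMI in 2 of the 4 LK libraries in each gate. Of 5 macrophage genes tested, 3 rose with CD16/32 in each CD34 class, as did 30.1 and 26.0% of all genes. With CD34 among CD16/32-low cells 5 rose, as did 39.5% of all genes. Their part in the receptor levels was not tested.

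**Figure D4:**
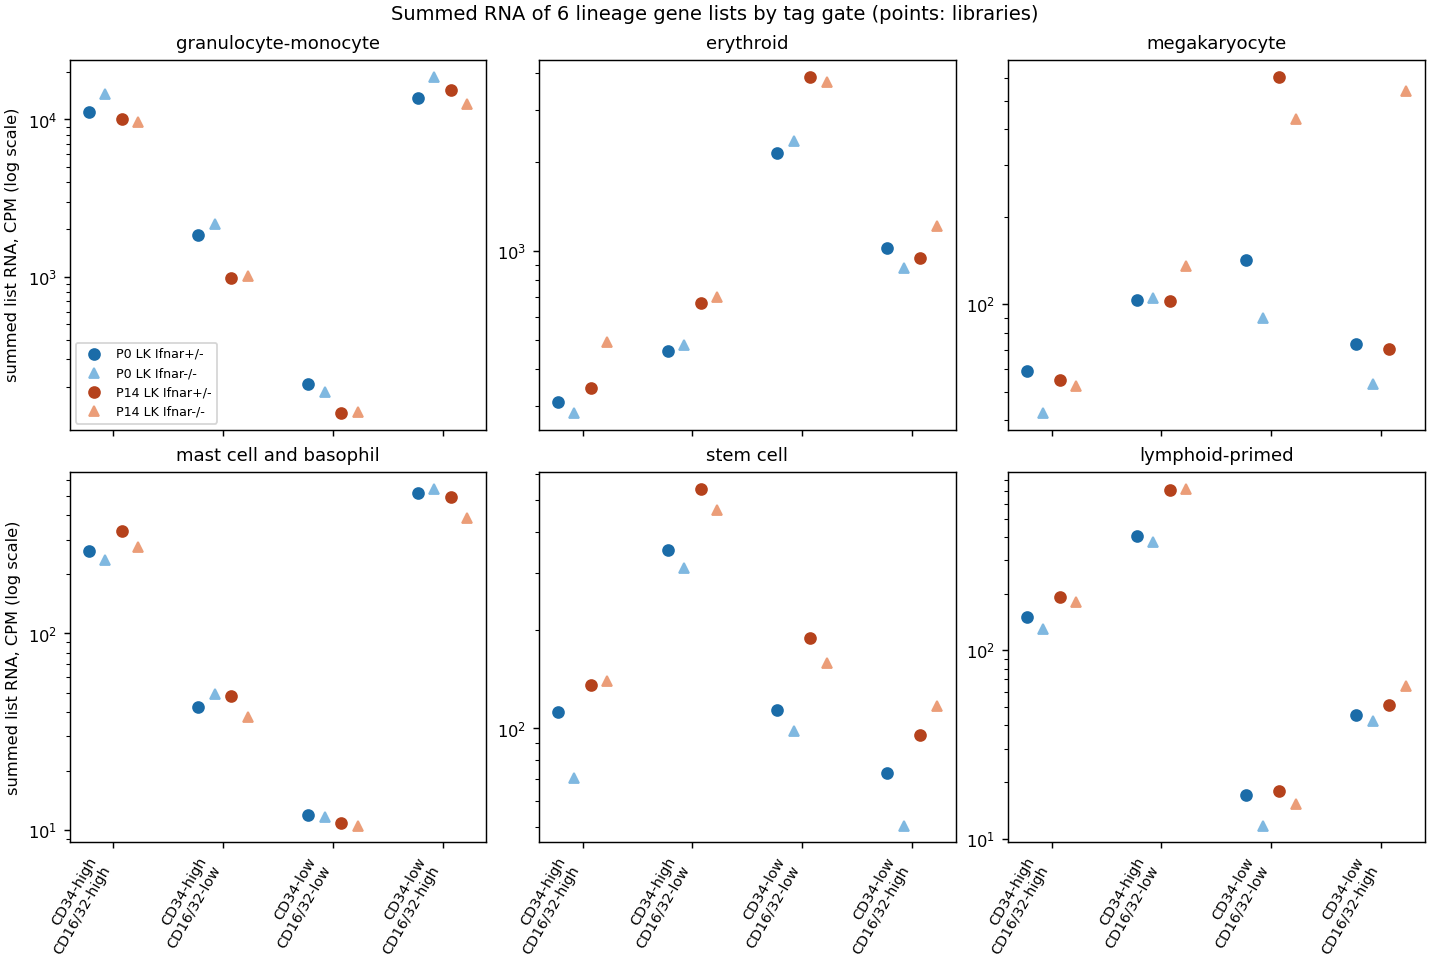
Summed RNA (y axis, CPM, log scale) of 6 lineage gene lists in the 4 tag gates (x axis), with a point for each LK library. Granulocyte-monocyte RNA reaches 9601 to 18641 CPM in the CD16/32-high gates, erythroid RNA 2150 to 3891 CPM in cells low for both, and stem cell and lymphoid-primed RNA peak in CD34-high CD16/32-low cells.

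Other tags, named after their values were seen, divided along the same gates. CD135, the FLT3 protein, had its highest median in CD34-high CD16/32-low cells (18, 18, 33 and 33 UMI). CD150 was highest in cells low for both, at 65, 52, 367.5 and 288 UMI. CD41, the integrin encoded by Itga2b, was highest in CD34-high CD16/32-high cells at 48, 52, 75.5 and 69 UMI and was 18, 16, 18 and 15 UMI in cells low for both. Its RNA lay the other way, at 10.8 to 13.9 CPM and 20.6 to 35.0 CPM. As a share of all tags, CD41 went with the RNA, at 1.05 to 1.13% in CD34-high CD16/32-high cells and 1.61 to 1.94% in cells low for both. The share is of summed UMI and the medians are of cells, and the part of the scaling was not tested.

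Over the 16 sums of gate and library, the genes whose log2(CPM + 1) was most like that of Cd34 were H2afy (Pearson r = 0.998), Cd27 (0.992), Eml4 (0.990), Cd93 (0.989) and Fgd2 (0.987), among 7795 genes with a mean of at least 10 CPM. For Fcgr3 they were Hp (0.994), Igsf6 (0.993), Hdc (0.992), Cst7 (0.990) and Mtus1 (0.987). For Fcgr2b they were Mtus1 (0.994), Ctsg (0.991), Anxa3 (0.990), Cst7 (0.989) and Tfec (0.987). Fcgr3 and Fcgr2b had r = 0.987 with each other, and Cd34 had 0.230 with Fcgr3 and 0.365 with Fcgr2b. The sums share libraries and gates, so these values only describe likeness.

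In LSK, Cd34 was high and the receptor genes low, in cells and in free RNA alike. Cd34 RNA was 345, 301, 406 and 396 CPM in all LSK cells, against 284, 273, 346 and 328 CPM in free RNA, and at least 1 UMI was found after thinning in 86.5, 82.1, 90.2 and 90.1% of them. No cell type of the LSK libraries that should lack Cd34 was set apart, so a background share was not measured there either. Fcgr3 was at 3.72, 1.94, 2.45 and 1.91 CPM, against 4.01, 3.78, 3.36 and 3.31 CPM in free RNA of LSK. These free levels rest on 20 to 25 UMI. In Ifnar+/- their intervals, 2.51 to 6.06 CPM at P0 and 2.17 to 4.96 CPM at P14, held the level in cells. In Ifnar-/- the cells were below the interval at both ages. Fcgr2b was at 4.10, 2.25, 4.91 and 4.70 CPM, against 2.46 to 5.83 CPM in free RNA. Fcgr3 was detected after thinning in 1.78, 1.24, 1.21 and 1.003% of LSK cells, within the range of LK cells low for both tags. It was not spread evenly: the 0.41 to 2.13% of LSK cells with a CD16/32 tag of 500 UMI or more, a limit chosen after seeing the data, had Fcgr3 at 54.8 to 119 CPM. Fcgr2b was detected in 2.36, 1.38, 2.86 and 3.24% of LSK cells, of which all but the P0 Ifnar-/- value lay above the 1.06 to 1.97% of those LK cells. Median depth was 25597 to 36534 UMI in LSK. The P0 Ifnar-/- library stood apart in its make-up, with 25.4% of cells holding RNA of both Procr and Mecom, markers of stem cells, against 10.8 to 13.2% in the other LSK libraries.

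LSK cells were compared between the 25% with the highest and the 25% with the lowest tag of each library, by the same test. By CD34 tag, 55.5% of 14428 genes were called, 28.4% higher and 27.1% lower. Cd34 RNA was 403, 385, 453 and 446 CPM in the highest and 207, 152, 262 and 249 CPM in the lowest group, a rise of 1.07 (SE 0.07, adjusted p = 4.6e-09). The groups did not overlap. Fcgr2b rose by 1.09 (SE 0.15, adjusted p = 1.4e-05), from 2.30, 1.13, 3.55 and 3.04 CPM to 5.40, 3.11, 5.39 and 5.43 CPM, while Fcgr3 gave -0.76 (SE 0.34, adjusted p = 0.066). The Fcgr2b call was lost without the library block (adjusted p = 0.085), and Fcgr2b turned to -0.17 when the tag was taken as a share of all tags of the cell. With such shares the Cd34 rise was 0.54 and the Fcgr3 difference was called at -1.997 (adjusted p = 5.5e-07). The Fcgr3 difference was also called when P0 Ifnar-/- was left out (-0.82), with no gene filter (-0.74) and with wider groups of cells than 25% (-0.64), and it was 0.072 without cells of a CD16/32 tag of 500 UMI or more, a step chosen after seeing the data.

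With the CD34 tag in LSK went stem, erythroid and lymphoid genes in opposite directions. All 9 stem cell genes fell (median -1.41), as did 12 of 13 erythroid genes and 8 of 8 megakaryocyte genes, and 6 of 8 lymphoid-primed genes rose (median 1.58), where 27.1% of all genes fell and 28.4% rose. Of mast cell and basophil genes 5 of 6 tested fell (median -3.49), and of mature B cell genes 3 of 3 (median -1.96). Flt3 rose by 1.53 and Slamf1, the gene of CD150, fell by 3.07. The CD150 tag, named after its values were seen, was at 66, 162.5, 51 and 54 UMI in the lowest and 19, 28, 9 and 12 UMI in the highest CD34 group. Cells with the lowest CD34 tag count thus held more of the stem cell RNA. Their Cd34 level was below that of free RNA (284, 273, 346 and 328 CPM) in each library. The groups also differed in UMI of all tags, at 4946344, 2822694, 4463487 and 4078805 in the lowest group. In the highest group these were 12048671, 9618785, 10813706 and 10311602. The median CD48 tag at P0 was 1339 and 415.5 UMI in the lowest and 6371 and 7978 UMI in the highest group. The gene lists were not read with the tag as a share of all tags.

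By CD16/32 tag, 7.94% of 14396 genes were called in LSK, 4.98% higher and 2.96% lower. Fcgr3 was 6.53, 5.80, 5.57 and 5.02 CPM in the highest and 2.03, 0.33, 0.65 and 0.60 CPM in the lowest group, a rise of 2.80 (SE 0.32, adjusted p = 2.0e-05). Fcgr2b was 6.35, 3.48, 6.68 and 6.85 CPM against 2.82, 1.94, 2.81 and 3.11 CPM, a rise of 1.11 (SE 0.13, adjusted p = 3.4e-05). Cd34 gave -0.12 (SE 0.04, adjusted p = 0.078), and with the tag as a share of all tags it fell by 0.58 (adjusted p = 2.1e-04). It was also called with no gene filter (-0.12) and without P14 Ifnar+/- (-0.16). For Fcgr2b, the tag as a share of all tags gave 0.65. Elane rose by 7.06, S100a8 by 5.60 and Cpa3, a mast cell protease, by 3.29, and 9 of 14 granulocyte-monocyte and 5 of 5 mast cell and basophil genes rose, against 4.98% of all genes. Elane was concentrated in the few LSK cells of a CD16/32 tag of 500 UMI or more, at 278, 943, 1425 and 1296 CPM. In the rest it was at 1.79, 0.99, 1.19 and 1.16 CPM, and the lists were not read without those few cells. Of 8 megakaryocyte genes 5 fell (median -0.46), against 2.96% of all genes, and 2 of 13 erythroid genes rose. Of other cell types, 3 of 4 mature macrophage genes (median 2.73), 2 of 5 hepatocyte genes and 1 of 3 mature B cell genes rose, and their part in the receptor levels was not tested. Both receptor calls were lost without the library block (adjusted p = 0.206 for Fcgr3 and 0.504 for Fcgr2b), and leaving out cells with a CD16/32 tag of 500 UMI or more, chosen after seeing the data, gave 1.44 (adjusted p = 1.2e-03) and 0.72 (adjusted p = 6.2e-03).

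Between ages, Cd34 was higher and Fcgr3 lower at P14 in each LK gate. Each library had its own thresholds, so a gate did not span the same tag counts at both ages. The CD34 threshold was 81.4 and 71.0 UMI at P14 against 56.4 and 53.6 at P0. That of CD16/32 was 109 and 85.2 against 132 and 123 UMI. The median CD34 tag of CD34-low CD16/32-high cells was 52 and 43 UMI at P14 against 26 and 24 at P0. The part of the thresholds in the ratios was not tested. The log2 ratios of P14 to P0 for Cd34 in Ifnar+/- were 0.39 in CD34-high CD16/32-high, 0.32 in CD34-high CD16/32-low, 0.11 in low for both and 1.33 in CD34-low CD16/32-high cells. In Ifnar-/- they were 0.43, 0.35, 0.41 and 0.95. Its counting interval excluded 0 in 7 of the 8 pairs. Fcgr3 gave -0.62, -1.02, -0.70 and -0.40 in Ifnar+/- and -0.90, -1.56, -0.75 and -1.04 in Ifnar-/-, with 8 of 8 intervals below 0. Fcgr2b was lower in 5 of 8 pairs, each beyond its interval, at -0.25, -0.62, 0.04 and 0.01 in Ifnar+/- and -0.55, -0.62, 0.52 and -0.45 in Ifnar-/-. The median of all genes with at least 10 CPM shifted by 0.04 to 0.12 between the same pairs, and after subtracting it Cd34 stayed higher in 8 pairs and Fcgr3 lower in 8, and Fcgr2b was lower in 7.

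In whole LK libraries, gate shares and levels within gates act together. Cd34 was at 113 and 111 CPM at P0 and at 198 and 173 CPM at P14, log2 ratios of 0.81 in Ifnar+/- and 0.63 in Ifnar-/-. Fcgr3 was at 35.9 and 39.2 CPM at P0 and at 31.6 and 22.3 CPM at P14, ratios of -0.18 and -0.81. Fcgr2b was at 12.5 and 12.8 CPM at P0 and at 14.7 and 10.5 CPM at P14, ratios of 0.24 and -0.28. Scaling by TMM, edgeR's factors that align the bulk of genes, moved these 3 pairs of ratios to 0.64 and 0.46, to -0.36 and -0.99, and to 0.07 and -0.46. The median CD34 tag of LK cells was 44 and 40 UMI at P0 and 156 and 101 UMI at P14, while its share of all tags was 2.12, 2.08, 3.17 and 2.69%. No test between ages was made, since each age and genotype had 1 library of a fraction.

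Between genotypes, Cd34 was lower in Ifnar-/- in each of the 4 pairs of whole libraries, though TMM factors turned the P0 LK pair to 0.015. Within gates it was lower in 7 of 8 pairs, of which 3 lay beyond their counting interval. Fcgr3 was lower in 5 of the 8 gate pairs, 2 of them beyond their interval, and higher in 3, 2 of them beyond. Fcgr2b was lower in 3, each beyond its interval, and higher in 5, of which 1 lay beyond. Ifnar-/- against Ifnar+/- gave log2 ratios for Fcgr3 in whole LK libraries of 0.13 at P0 (interval 0.09 to 0.17) and -0.50 at P14 (-0.57 to -0.43). Fcgr2b gave 0.03 (-0.04 to 0.10) and -0.49 (-0.59 to -0.38), and Cd34 gave -0.03 and -0.20. Within the CD34-high CD16/32-high gate Fcgr3 was at 0.16 at P0 and -0.13 at P14, and Fcgr2b at 0.11 and -0.19. At P14, Fcgr3 was lower in the Ifnar-/- library within each of the 4 gates, 2 of them beyond their interval, and the CD34-high CD16/32-high gate was also smaller there. Those 2 were the CD16/32-high gates, whose median CD16/32 tag was also lower there, at 362 and 253 UMI against 578 and 517 UMI. The CD16/32 threshold was 85.2 tag UMI there against 109 in Ifnar+/-. The CD34-low gate of the pair was the one with high Pf4 RNA, and the part of these differences was not tested. In LSK, Cd34 gave -0.20 at P0 and -0.04 at P14. Fcgr3 gave -0.93 and -0.35, and Fcgr2b -0.86 and -0.06, at the low levels given above. The P0 value of Fcgr3 turned to 0.090 with the mean of the cells' CPM, and was -2.44 without cells of a CD16/32 tag of 500 UMI or more.

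Between fractions, Cd34 RNA was higher in LSK than in LK in each of the 4 pairs, with log2 ratios of 1.61, 1.44, 1.04 and 1.20. Fcgr3 was lower, at -3.27, -4.33, -3.69 and -3.54, and so was Fcgr2b, at -1.61, -2.50, -1.58 and -1.16. TMM factors moved these ratios by 0.18 to 0.42 toward lower values in LSK and turned none of them. The CD34 tag was at 206.5, 227, 238 and 240 UMI in LSK, a narrower range than in LK. The CD16/32 tag was at 62, 48, 21 and 22 UMI in LSK and at 58, 43, 45 and 29 UMI in LK. By median it did not separate the fractions at P0. By its share of all tags it was lower in LSK in each pair, at 1.46, 1.61, 0.64 and 0.63% against 4.003, 4.03, 3.73 and 2.89% in LK. The share is of summed UMI, so it differs from the median in the summing as well as in the scale.

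**Figure D5:**
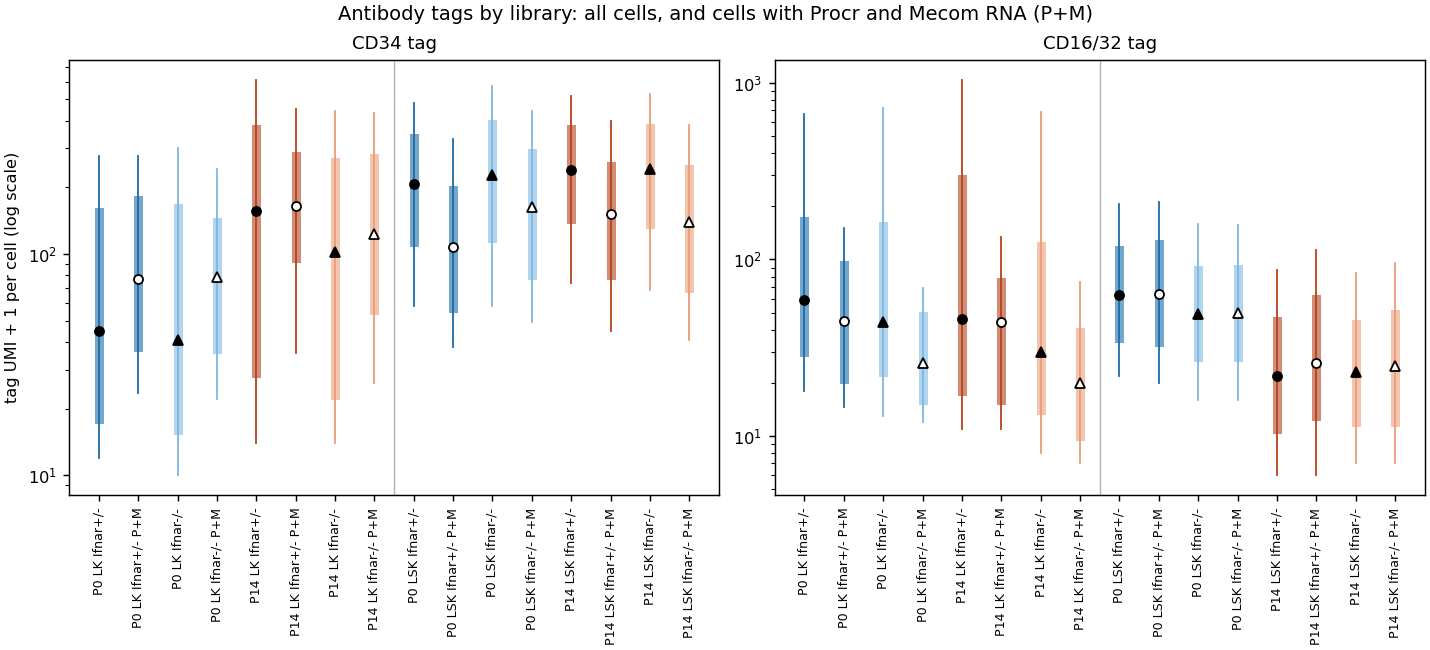
CD34 and CD16/32 tag UMI + 1 per cell (y axis, log scale) in each library, for all cells and for cells with Procr and Mecom RNA (P+M). Symbols are medians, thick bars the middle 50% of cells and thin bars the middle 80%, and the median CD34 tag is 40 to 156 UMI in LK and 206.5 to 240 UMI in LSK.

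Cells with RNA of both Procr and Mecom after thinning, here read as stem-like, had Cd34 RNA of 229, 222, 337 and 336 CPM in LK and 262, 253, 328 and 316 CPM in LSK. They were 1.99, 1.84, 3.03 and 2.60% of LK cells. Their log2 ratio of LSK to LK for Cd34 was 0.20, 0.19, -0.04 and -0.09, against 1.04 to 1.61 for whole libraries, so stem-like cells of the 2 fractions were close in Cd34 RNA. Their median CD34 tag was 106, 161.5, 151 and 139 UMI in LSK, below the median of all LSK cells in each library. As a share of all tags it was 4.04 and 4.74% at P0, above the 3.71 and 4.13% of all LSK cells. At P14 it was 4.31 and 4.14%, below their 4.43 and 4.31%. The CD48 tag made up 71.1 and 64.4% of all tags of the P0 LSK libraries, so these shares depend largely on it. Fcgr3 in them was at 1.58 to 4.50 CPM in LK and 0.14 to 0.63 CPM in LSK, and Fcgr2b at 1.58 to 6.20 and 0.92 to 2.84 CPM. These levels rest on few molecules: 5, 3, 4 and 9 UMI of Fcgr3 in LK and 7, 4, 7 and 7 in LSK. Fcgr2b had 9, 3, 9 and 8 UMI in LK and 19, 27, 28 and 35 in LSK.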

How the data were processed

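CITE-seq (10x Genomics 3' chemistry version 3.1, per the labels' protocols) was read from 8 libraries. The authors deposited raw UMI counts per feature and barcode, without a cell filter or normalization. The matrix headers name Cell Ranger 4 and the submitters' processing notes Cell Ranger 6.0.1 and mm10; strand use in counting is not given in the sources used here. UMI were summed per library and tag gate, or per 25% of LSK cells by tag, and tested with edgeR 4.0.16 (R 4.3.3; filterByExpr, TMM, quasi-likelihood, library block). A gate of a library needed 20 cells. Log2 ratios between single libraries added 0.5 counts; their intervals, like the exact Poisson and Clopper-Pearson intervals, have a level of 95% and cover counting error only. No cell was removed as a doublet: Scrublet (scanpy 1.11.5) marked 0% to 2.81% by its own threshold, so removal at 0.8% per 1000 cells was an alternative. The fits were tested on simulated counts.

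Always named were the members, Ly6a, Kit and the genes of 14 lists, some of which are not reported here; further genes were the 5 called in each direction with the largest smallest log2 ratio over the 4 libraries (mean of at least 10 CPM), and the 5 most like each member. The members, lists and tests were chosen with earlier results of these data known. Libraries, scaling, filters, thresholds, depth and DESeq2 1.42.0 were varied.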

Additional observations from a re-analysis of the deposited data

Results flagged for a closer look

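The 7 results were picked out because a contrast went one way in one pair of libraries and the other way in another. No difference between the 2 contrasts was tested, since each library stands alone. Values are log2 ratios, and the first is followed by the second and by the gap between them.

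In whole LK libraries and both CD16/32-high gates, Fcgr3, the activating receptor, was higher in Ifnar-/- at P0 and lower at P14. In LK cells low for both tags it was lower than in Ifnar+/- at both ages, at -0.28 and -0.33. The intervals of these values reached above 0. In whole LK libraries the ratios were 0.13 and -0.5, a gap of 0.63. In the CD34-high CD16/32-high gate they were 0.16 and -0.13, a gap of 0.28, and in the CD34-low CD16/32-high gate 0.28 and -0.37, a gap of 0.65. The median CD16/32 tag of these gates was also higher in Ifnar-/- at P0 (486 and 737 UMI against 434 and 601). At P14 it was lower (362 and 253 UMI against 578 and 517), and its part in the ratios was not tested. Fcgr2b, the inhibitory receptor, had 0.11 and -0.19 in the CD34-high CD16/32-high gate, a gap of 0.3.

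At P0 the genotype ratio of Fcgr3 was 0.13 in LK and -0.93 in LSK, a gap of 1.06. The LSK level was below the counting interval of free RNA in Ifnar-/- and within it in Ifnar+/-. The mean of cells' CPM turned the LSK ratio to 0.090. Fcgr2b in whole LK libraries was higher at P14 in Ifnar+/- (0.24) and lower in Ifnar-/- (-0.28), a gap of 0.52; the first was 0.07 with TMM factors and -0.028 with the mean of cells' CPM. In Ifnar-/- its age ratio was -0.28 in LK and 1.06 in LSK, a gap of -1.34. The LSK ratio in Ifnar+/- was 0.26. The P0 LSK Ifnar-/- library stood apart in its make-up, with 25.4% of cells holding RNA of both Procr and Mecom, and the part of this was not tested.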

How the results depend on the processing

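No analysis paired by replicate number was possible because each combination of age, genotype and fraction had 1 library. Gates of a library were blocked instead. A test over pairs of libraries matched on the other factors was not run. Of 282 alternative values of the members' fold changes, 262 stayed on the same side of the threshold with the same direction, 9 lost and 8 gained a call, and 3 turned direction; the cause was not tested. Genes called numbered 8471, 8185, 11012 and 4640 for CD16/32 among CD34-high and CD34-low cells and for CD34 among CD16/32-low and CD16/32-high cells, and 8005 and 1143 for CD34 and CD16/32 in LSK. Requiring a 2-fold change gave 1761, 2044, 3826, 1255, 1332 and 144. Without the library block, 4310, 5250, 2022, 2461 and 47 were called in all but the third. Dividing tags at library medians gave 1689 in the second and 7696 in the fourth. In LSK by CD16/32, DESeq2 called 736 and the tag as a share of all tags 6605. Leaving out 1 library gave 7216 to 7727, 6792 to 7547, 10052 to 10901, 3009 to 4190, 6810 to 7483 and 468 to 1053 calls; the lowest of the fourth came without P0 LK Ifnar+/- (3009), and of the last without P0 LSK Ifnar+/- (468) or P14 LSK Ifnar-/- (740).

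Directions turned for Fcgr3 between the CD16/32-high gates at library medians (0.31), for Fcgr3 by CD34 in LSK without cells of a CD16/32 tag of 500 or more (0.072, added after seeing the data) and for Fcgr2b by CD34 in LSK with tag shares (-0.17). Between Ifnar-/- and Ifnar+/- at P0, TMM turned Cd34 in LK (0.015), the mean of cells' CPM turned Fcgr3 in LSK (0.090), and the share of all tags turned CD16/32 in LK (0.0098) and LSK (0.14). The share also turned CD16/32 of P0 LSK against LK (-1.32 in Ifnar-/- and -1.45 in Ifnar+/-). These shares are of summed UMI and the values they turned are of medians, so scaling was not the only change. The mean of cells' CPM turned Fcgr2b of P14 against P0 in LK Ifnar+/- (-0.028). The gain in CD34-high cells was 21.2 (Ifnar+/-) and 13.5 points (Ifnar-/-) with pooled thresholds and 12.2 points with tag shares in Ifnar+/-. Median rho without thinning was 0.79 for Cd34, 0.66 for Fcgr3 and 0.56 for Fcgr2b, and 0.67 for Cd34 with tag shares. Depth limits the receptor genes in LSK, where a library held few UMI of them.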

Other observations

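A small group of LSK cells carried the CD16/32 tag at 500 UMI or more, a value chosen after the data had been seen. They were 60, 74, 19 and 19 cells in the order of libraries used above, or 1.17, 2.13, 0.41 and 0.43% of the library. Their Fcgr3 RNA was 62.9, 54.8, 108 and 119 CPM, against 2.76, 0.50, 1.72 and 1.11 CPM in the other LSK cells. Fcgr2b was 30.2, 21.9, 42.9 and 41.4 CPM, against 3.68, 1.72, 4.65 and 4.45 CPM. Since they were chosen by the tag, these levels are a description.

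The RNA of these cells differed between libraries. Cma1, a mast cell chymase, was at 243, 3390, 452 and 0 CPM, and Tpsb2, a mast cell tryptase, at 177, 2293, 190 and 0 CPM. Elane, of early neutrophil precursors, was at 278, 943, 1425 and 1296 CPM. S100a8, of later neutrophil precursors, was at 2.13, 173, 877 and 3394 CPM, and Camp, a granule gene, at 0, 3.60, 24.8 and 1515 CPM. Cpa3, a mast cell protease, was at 112, 862, 344 and 206 CPM, but Ms4a2 was at 27.7, 6.92, 80.1 and 24.8 CPM. High-tag LSK cells thus held the most RNA of the mast cell proteases Cma1, Tpsb2 and Cpa3, and the least of Ms4a2, in the P0 Ifnar-/- library and the most late granule RNA in the P14 Ifnar-/- library. Cd34 in them was 246, 95.5, 255 and 253 CPM, against 346, 306, 407 and 397 CPM in the rest. Without these cells the log2 ratio of Ifnar-/- to Ifnar+/- for Fcgr3 in P0 LSK was -2.44 in place of -0.93, and P14 to P0 in Ifnar-/- was 1.13 in place of -0.02. Whether they are progenitors that express Sca1 or cells of another kind that passed the sort was not tested.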
